A study of Homo sapiens with 6 samples.

Results

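Wide accessible regions were those of at least 700 bp, measured as end minus start, that lay more than 1000 bp from the start and end of every protein-coding and lncRNA gene of the RefSeq GRCh38 gene table. Of the 3838 regions in the authors' deposited table, 471 had this width and 399 remained after those near gene ends were left out. The other regions away from gene ends, 3120 of 130 to 699 bp, are called narrower here. ATAC-seq, in which a transposase cuts and tags open DNA, was done in KMS-11, KMS-12 and RPMI8226, established cell lines of human multiple myeloma (n = 3) that are all labelled wild type. JQ1 cells received 1 µM of the drug for 72 h and DMSO cells its solvent alone, with 1 library per line and treatment (6 libraries, 3 per group). Each line stands for 1 patient's tumour grown in culture. Although the series' design text speaks of duplicates, the labels list no second library, so the 3 lines are the replicates. P-values rest on differences between lines only, and those given for single regions use a spread pooled over all regions, not the region's own. The label of myeloma cells could not be checked against marker levels, since the table holds neither expression nor accessibility levels.

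JQ1 occupies the acetyl-lysine pocket of the BET bromodomain proteins and displaces them from acetylated chromatin. At large enhancers many transcription factors bind side by side and keep a long stretch of DNA free of nucleosomes. Away from promoters, a wide accessible region may mark such an enhancer, a CTCF site with its flanks, or a promoter used by a minor transcript. A gene named below contains the region or lies nearest to it, and expression, which might tie them together, was not analysed here. Coordinates are on GRCh38, per the submitters' processing notes.

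The values are the log fold changes of the authors' deposited table, read as log2 of JQ1 over DMSO although its header states neither base nor direction. No region had a value above 0 in any line. The table's own count of lines in common, 2 or 3, matched how many lines had -0.5 or less in 3838 of 3838 regions, so the table holds only regions selected for folds below 0. These are called losses on the assumed direction, and with the ratio turned each would be a gain of the same size. Depth was unknown. The width rule used no fold, but every comparison below is made among regions that had already passed this selection.

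No genome sequence of the regions was used here. For 8 wide regions, RefSeq lists a transcript start of the containing gene whose promoter window, 300 bases on GRCh38.p14, overlapped the region: ADGRL2, PAX6, EVA1A, TMEM127, GPR35, EPHA7, ESR1 and PIP5KL1, with 11 windows in all. These are starts inside the gene, which a rule on gene ends does not remove. They made up 2.01% of the 399 wide regions, against 16 of 3120 narrower ones (0.513%), and per 1000 kb of covered sequence there were 29.8 windows in wide regions and 14.2 in narrower ones. In each of the 8, a window lay wholly inside the region. Of these, 7 held the GC box GGGCGG on either strand in the 250 bases before the start, a motif present in 42.6% of all 35116 RefSeq windows. The ETS core CCGGAA, the motif family of FLI1 in the study's title, was in 0 of the 8 and in 14.5% of all windows, and TATAAA was in 1 of the 8 and in 10.7% of all. A GC box on the reverse strand can share letters with the ETS core, and a match is a description of the sequence alone. The 250 bases before the start, 5′ to 3′ along the gene, for the widest region of all (PIP5KL1, chr9:127927492-127927741, minus strand), the next widest (PAX6, chr11:31812721-31812970, minus strand), the estrogen receptor gene with a further wide region (ESR1, chr6:151807432-151807681, plus strand) and the window with no GC box (TMEM127, chr2:96260596-96260845, minus strand) are printed here. Capitals mark the GC box on either strand.
PIP5KL1: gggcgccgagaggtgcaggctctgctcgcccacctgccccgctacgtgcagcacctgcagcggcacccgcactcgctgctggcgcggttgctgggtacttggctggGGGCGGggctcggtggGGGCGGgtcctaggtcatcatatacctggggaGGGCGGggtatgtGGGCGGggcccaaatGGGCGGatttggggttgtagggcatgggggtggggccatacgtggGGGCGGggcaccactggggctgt
PAX6: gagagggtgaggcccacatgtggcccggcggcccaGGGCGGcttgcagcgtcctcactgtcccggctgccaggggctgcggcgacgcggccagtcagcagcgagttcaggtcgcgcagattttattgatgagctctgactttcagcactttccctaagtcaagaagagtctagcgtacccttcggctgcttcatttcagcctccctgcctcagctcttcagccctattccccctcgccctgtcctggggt
ESR1: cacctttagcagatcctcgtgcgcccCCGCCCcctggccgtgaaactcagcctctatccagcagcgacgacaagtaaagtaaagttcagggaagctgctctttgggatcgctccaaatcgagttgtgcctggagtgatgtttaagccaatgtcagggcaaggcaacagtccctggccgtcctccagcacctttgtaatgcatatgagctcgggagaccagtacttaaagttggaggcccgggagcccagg
TMEM127: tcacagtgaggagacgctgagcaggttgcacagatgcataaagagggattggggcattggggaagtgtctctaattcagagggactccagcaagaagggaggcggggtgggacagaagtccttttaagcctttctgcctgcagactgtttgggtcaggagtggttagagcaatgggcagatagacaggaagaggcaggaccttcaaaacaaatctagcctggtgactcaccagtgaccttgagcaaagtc

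These 4 regions differed in the line that was nearest 0. The PIP5KL1 region had -0.77 in KMS-11 and -0.53 in KMS-12, with -0.18 in RPMI8226 in the authors' deposited table. PAX6, the transcription factor of eye and brain development, had -0.20 in KMS-11 and -1.19 in KMS-12, with -0.71 in RPMI8226 in the authors' deposited table. In the authors' deposited table the ESR1 region with the start (chr6:151807198-151808562) had -0.086 in KMS-11 and -0.89 in KMS-12, with -0.66 in RPMI8226. TMEM127, a membrane protein of the endosomal system, had -0.67 in KMS-11 and -0.75 in KMS-12, with -0.092 in RPMI8226 in the authors' deposited table. KMS-11 was thus nearest 0 at PAX6 and ESR1, and RPMI8226 at PIP5KL1 and TMEM127. For EPHA7, an ephrin receptor whose window held 20 CG dinucleotides, the authors' deposited table gave -0.21 in KMS-11 and -0.93 in KMS-12, with -0.51 in RPMI8226. EVA1A, an autophagy regulator, had -0.61 in KMS-11 and -0.23 in KMS-12, with -0.95 in RPMI8226 in the authors' deposited table. GPR35, an orphan G protein-coupled receptor, had -0.24 in KMS-11 and -0.69 in KMS-12, with -0.94 in RPMI8226 in the authors' deposited table. ADGRL2, an adhesion receptor, had -0.73 in KMS-11 and -0.66 in KMS-12, with -0.13 in RPMI8226 in the authors' deposited table. In each of the 8 regions, 1 line stayed above -0.5 and the others were at or below it. This held for 332 of all 399 wide regions and 2886 of the 3838 in the table.

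The middle of the wide regions lay nearer 0 than that of the narrower regions in each line. In KMS-11 the median log2 fold change was -0.68 in wide and -0.74 in narrower regions, a difference of 0.058. In KMS-12 it was -0.68 in wide and -0.82 in narrower regions, a difference of 0.15. In RPMI8226 it was -0.55 in wide and -0.63 in narrower regions, a difference of 0.079. Wide minus narrower thus had a mean of 0.095 ± 0.046 (SD, n = 3 lines), positive in 3 of 3 lines. An exact two-sided sign-flip permutation test over the 3 lines gave p = 0.25, the smallest that 3 lines allow, so a threshold of 0.05 could not be reached. The mean difference was 0.055 against narrower regions of at least 400 bp only, and 0.036 when both sides held only regions shared by 2 lines. As JQ1 to DMSO ratios, the medians were 0.624 in wide and 0.599 in narrower regions in KMS-11, 0.626 and 0.565 in KMS-12, and 0.682 and 0.646 in RPMI8226. The quartiles overlapped widely: in KMS-12 the middle of the wide regions ran between -0.99 and -0.48 and that of the narrower ones between -1.13 and -0.56.

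**Figure D1:**
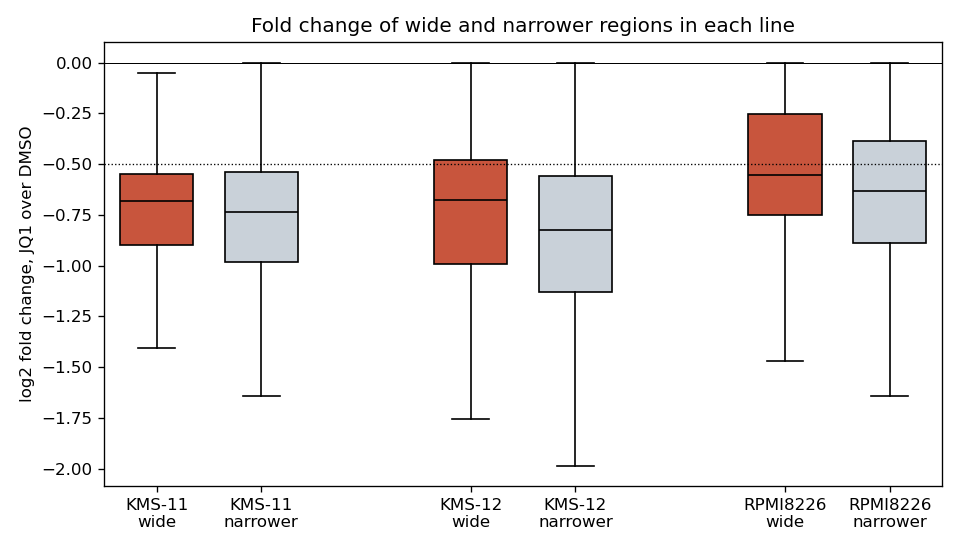
Log2 fold change of JQ1 over DMSO (vertical axis) in 399 wide and 3120 narrower regions for each cell line; boxes span the quartiles, the inner line is the median and whiskers reach to 1.5 times the box height. The wide median lies nearer 0 in all 3 lines, by 0.058 to 0.15, and the boxes overlap; the dotted line marks -0.5.

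Large losses made up a smaller share of the wide than of the narrower regions, with no test of the shares made. A mean over lines of -1 or lower was found in 20 of 399 wide regions (5.01%), against 423 of 3120 narrower ones (13.6%) and 12.3% of the whole table. The low share was not particular to 700 bp or more: it was 6.97% between 600 and 700 bp and 8.63% between 700 and 800 bp. In wide regions within 1000 bp of a gene end it was 1.39% (1 of 72). Among the 94 wide regions of 1000 bp or more, 0 had such a mean. Their lowest mean was -0.997 at TENM1, a transmembrane protein of neurons, just short of -1. A value of -1 or lower occurred in 67 wide regions in KMS-11 (16.8%, against 22.7% of the table). For KMS-12 there were 100 (25.1%, against 29.9% of the table) and for RPMI8226 31 (7.77%, against 16.4% of the table). By width, the median of the mean over lines was -0.75 below 200 bp, -0.76 between 200 and 300 bp and -0.72 between 400 and 500 bp. It was -0.66 both between 600 and 700 bp and between 700 and 800 bp. Wider still, it was -0.64 between 800 and 1000 bp and -0.61 at 1000 bp or more. Within the 399 wide regions width and fold were hardly related: Spearman's rho was 0.065 for KMS-11, -0.018 for KMS-12 and 0.11 for RPMI8226, across regions that share libraries and selection.

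**Figure D2:**
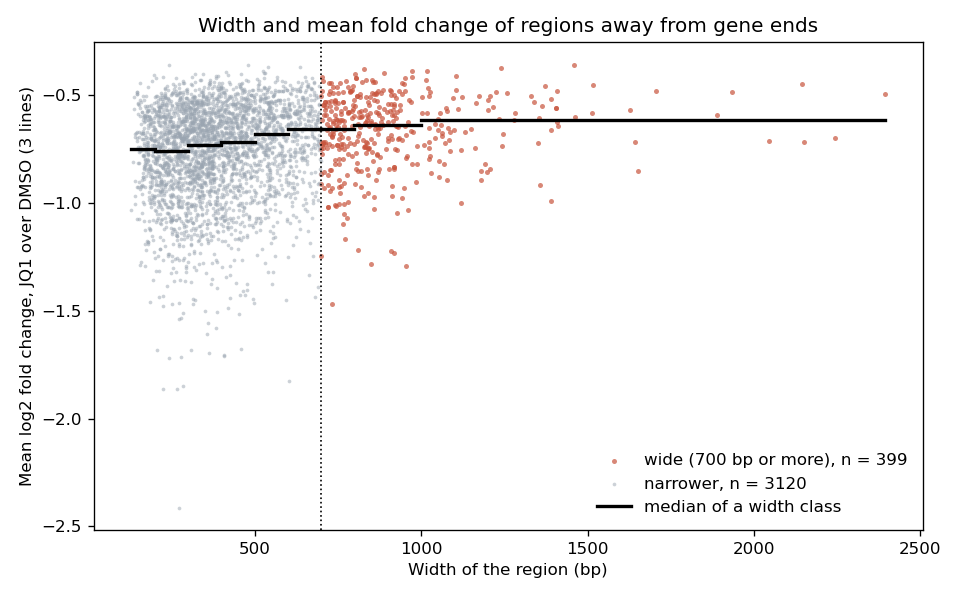
Mean log2 fold change over the 3 lines (vertical axis) against width in bp (horizontal axis) for regions away from gene ends, wide ones in red and narrower ones in grey; black bars are medians of width classes. The median is -0.75 below 200 bp, -0.76 between 200 and 300 bp and -0.61 at 1000 bp or more, and no region of 1000 bp or more lies at -1 or lower.

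Repeated values moved with width in the same comparison. A fold was counted as repeated where at least 10 regions of the table carried the identical value in that line. Folds made from few reads can take few distinct values, but whether read number lay behind the repeats was not tested. In KMS-11 this held for 30 of 399 wide regions (7.52%) and 1447 of 3120 narrower ones (46.4%). In KMS-12 it held for 101 wide (25.3%) and 1735 narrower ones (55.6%), and in RPMI8226 for 19 (4.76%) and 247 (7.92%). Values given for single regions in this text include such repeats and are not marked. For example, the KMS-12 value of the ADGRL2 region, -0.66, was identical at FCN1, PALLD and other wide regions. The difference averaged -24.1 ± 18.6 percentage points (SD, n = 3 lines), negative in 3 of 3 lines, with an exact sign-flip permutation p of 0.25, again the smallest possible. With repeated values left out, the wide minus narrower difference in median fold was 0.066 for KMS-11, 0.16 for KMS-12 and 0.096 for RPMI8226, no smaller than with all regions.

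**Figure D3:**
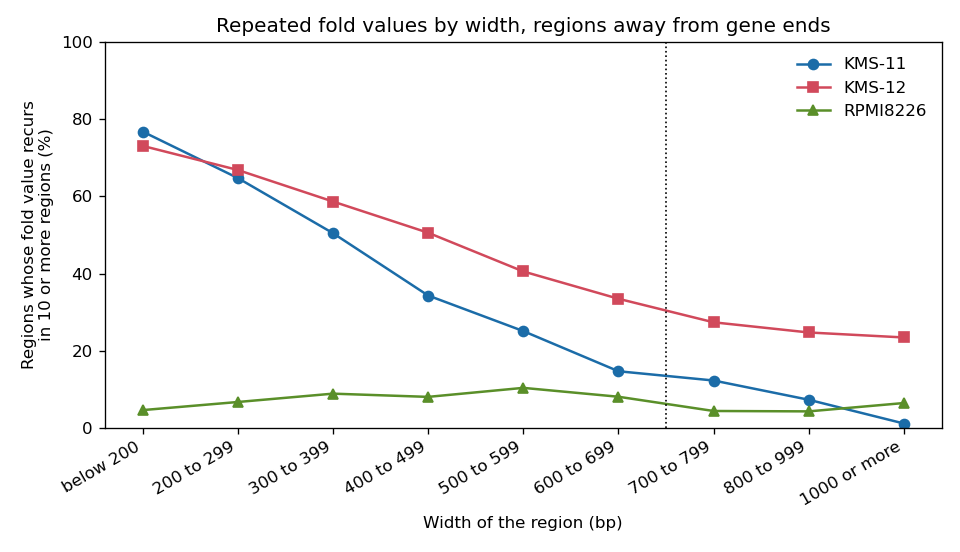
Share of regions whose fold value recurs in 10 or more regions (vertical axis, percent) by width class (horizontal axis, bp) for each line; the dotted line marks 700 bp. In KMS-11 the share is 76.9% below 200 bp and 1.06% at 1000 bp or more, in KMS-12 73.1% and 23.4%, and in RPMI8226 it stays at 10.3% or less.

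Loss shared by all lines was a minority pattern. The authors counted 67 of 399 (16.8%) as shared by 3 lines, against 815 of 3120 narrower regions (26.1%) and 24.8% of the table. Among the 332 wide regions shared by 2 lines, the line above -0.5 was RPMI8226 in 154 (46.4%), KMS-12 in 107 (32.2%) and KMS-11 in 71 (21.4%). For the 2305 narrower regions shared by 2 lines RPMI8226 made up 42.1%, KMS-12 27.7% and KMS-11 30.2%. Values above -0.1 were found in RPMI8226 in 49 wide regions (12.3%, 5.90% of narrower ones), in KMS-12 in 30 (7.52%, 5.26%) and in KMS-11 in 7 (1.75%, 3.81%). No test of these shares was made. The lines ranked neither the wide nor the narrower regions alike. Spearman's rho between folds was -0.20 for KMS-11 and KMS-12, -0.14 for KMS-11 and RPMI8226 and -0.29 for KMS-12 and RPMI8226 over 399 wide regions. For the same pairs it was -0.12, -0.10 and -0.21 over 3120 narrower regions. The points share libraries and the selection of the table. That selection kept only regions with at least 2 lines at or below -0.5, so a value near 0 in 1 line required low values in the others. A rho below 0 can arise in this way, so these values cannot show whether the lines responded alike.

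By limma with Benjamini-Hochberg adjustment over 3838 regions, 309 of 399 wide regions (77.4%) passed 0.05 with a negative mean, against 87.5% of the table, and no region had a positive mean. Every region received the same standard error, 0.262, so the call only separates means below about -0.53 from the rest and repeats the selection of the table. Fewer regions passed with any 1 line left out. Without KMS-11, 78 of 399 wide regions passed (19.5%), against 34.1% of all regions in the table. Without KMS-12, 175 passed (43.9%, against 52.0%), and without RPMI8226, 171 (42.9%, against 55.0%). Each of these runs also has fewer replicates, and that was not told apart from the weight of the line left out.

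The 12 lowest means were at regions of 700 to 955 bp, and 7 of the 12 lay inside a gene. The lowest of all was 101 kb from GUCY2F, a guanylate cyclase of photoreceptors (chrX:109270944-109271676), at -0.56 in KMS-11 and -2.79 in KMS-12, with -1.06 in RPMI8226 in the authors' deposited table. Its mean was -1.47 ± 1.17 (SD, n = 3 lines), so the spread between lines was nearly as large as the mean. Inside the noncoding gene LOC105372441 (chr19:50843918-50844873) the authors' deposited table gave -1.96 in KMS-11 and -1.32 in KMS-12, with -0.60 in RPMI8226. The 3 lines averaged -1.29 ± 0.68 (SD, n = 3 lines). CPEB4, which binds mRNA tails and controls translation (chr5:173917873-173918723), had -0.84 in KMS-11 and -2.08 in KMS-12, with -0.93 in RPMI8226 in the authors' deposited table. A region 43.5 kb from the noncoding LINC01473 (chr2:186129809-186130509) had -1.59 in KMS-11 and -1.67 in KMS-12, with -0.48 in RPMI8226 in the authors' deposited table. NAV1, a microtubule-binding protein (chr1:201763910-201764830), had -0.63 in KMS-11 and -2.32 in KMS-12, with -0.75 in RPMI8226 in the authors' deposited table. CPEB4 and NAV1 were thus lowest in KMS-12 by a wide gap, while at LINC01473 KMS-11 and KMS-12 stood close together.

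STOM encodes stomatin, an integral protein of the red cell membrane, and its region (chr9:121344312-121345221) stood at -1.48 in KMS-11 and -1.80 in KMS-12, with -0.39 in RPMI8226 in the authors' deposited table. SIK3, a salt-inducible kinase (chr11:116853236-116854046), showed another pattern, -0.35 in KMS-11 and -1.83 in KMS-12, with -1.47 in RPMI8226 in the authors' deposited table. This stretch also lies within the antisense RNA gene APOA1-AS. MAEL, a germ cell factor of transposon silencing (chr1:166999229-167000002), had -1.56 in KMS-11 and -1.33 in KMS-12, with -0.61 in RPMI8226 in the authors' deposited table. The region 17.5 kb from ANXA1, a phospholipid-binding regulator of inflammation (chr9:73133569-73134347), had -1.43 in KMS-11 and -1.04 in KMS-12, with -0.73 in RPMI8226 in the authors' deposited table. The 3 lines averaged -1.07 ± 0.35 (SD, n = 3 lines). TEX11, an X-linked meiosis gene (chrX:70553595-70554363), had -1.53 in KMS-11 and -1.45 in KMS-12, with -0.17 in RPMI8226 in the authors' deposited table. The remaining ones lay 139 kb from NAMPT-AS1 (chr7:106424932-106425698, -1.10 ± 0.96) and 17.5 kb from LOC102723392 (chr13:31073856-31074785, -1.04 ± 0.23; SD, n = 3 lines each). LOC102723392 was the only one of the 12 with its lowest value in RPMI8226, while 7 had it in KMS-12 and 4 in KMS-11. Over all 399 wide regions the lowest line was RPMI8226 in 21.3%, KMS-12 in 40.1% and KMS-11 in 38.6%, with no test made.

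**Figure D4:**
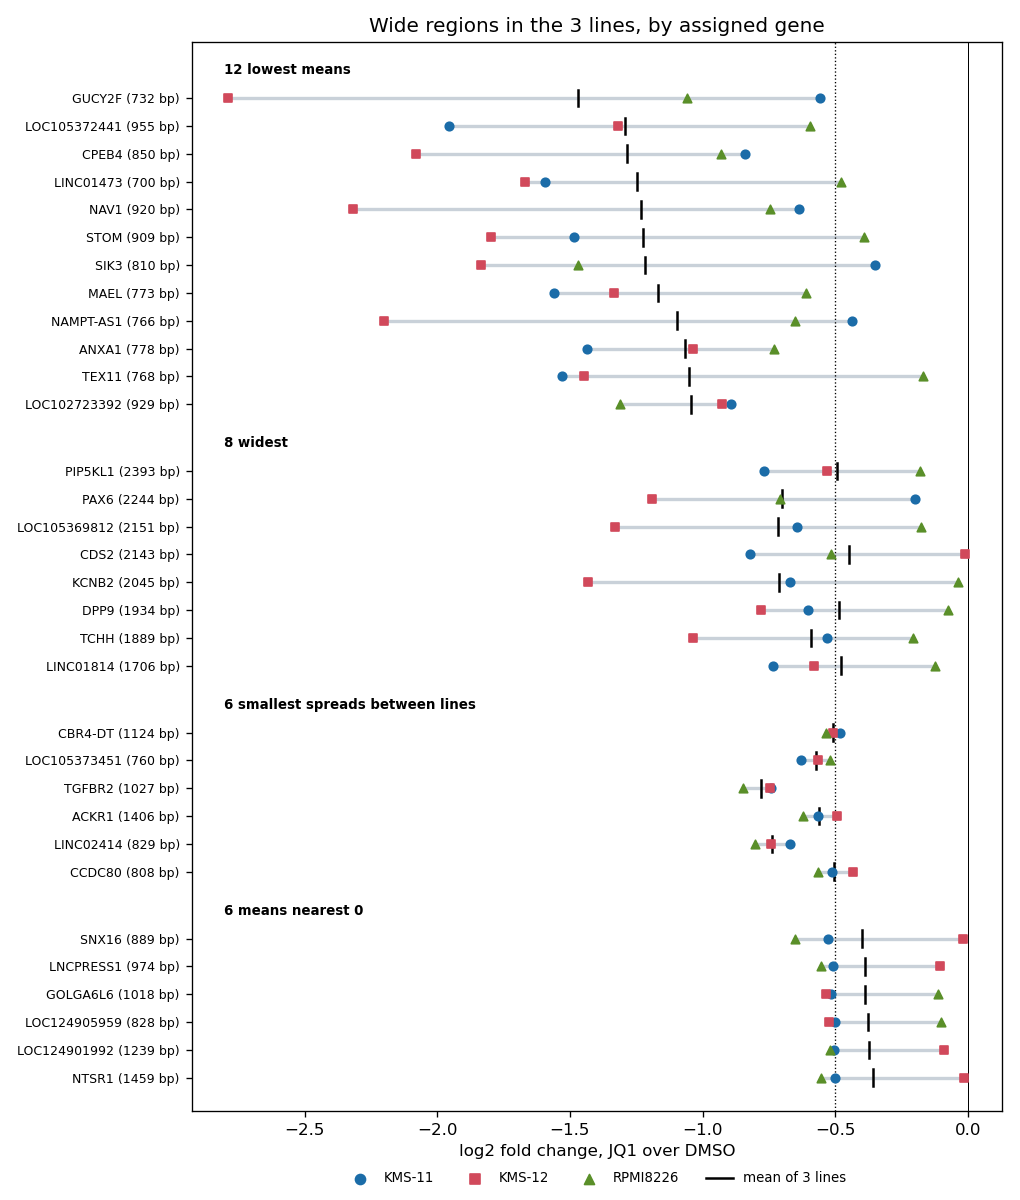
Log2 fold change of JQ1 over DMSO (horizontal axis) in each line for the wide regions with the 12 lowest means, the 8 greatest widths, the 6 smallest spreads and the 6 means nearest 0, named by gene and width; grey bars span the lines, black ticks are means and the dotted line marks -0.5. KMS-12 reaches -2.79 at GUCY2F, while RPMI8226 is nearest 0 in 6 of the 8 widest regions. Across the 332 wide regions shared by 2 lines, RPMI8226 is the line above -0.5 in 46.4%.

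The 8 widest regions, 1706 to 2393 bp, were each shared by 2 lines and not 3, as were 332 of all 399 wide regions. RPMI8226 was the line nearest 0 in 6 of the 8. Among the 332 it was the line above -0.5 in 46.4%, and the difference was not tested. PIP5KL1, a phosphoinositide kinase-like protein (chr9:127926927-127929320), averaged -0.49 ± 0.30 and PAX6 (chr11:31811098-31813342) -0.70 ± 0.50 (SD, n = 3 lines each). The third, 2.23 kb from the noncoding LOC105369812 (chr12:67482924-67485075, 2151 bp), had -0.64 in KMS-11 and -1.33 in KMS-12, with -0.18 in RPMI8226 in the authors' deposited table. CDS2, an enzyme of phosphoinositide synthesis (chr20:5192008-5194151, 2143 bp), was the one with KMS-12 nearest 0, at -0.82 in KMS-11 and -0.010 in KMS-12, with -0.52 in RPMI8226 in the authors' deposited table. KCNB2, a voltage-gated potassium channel (chr8:72822308-72824353, 2045 bp), had -0.67 in KMS-11 and -1.43 in KMS-12, with -0.037 in RPMI8226 in the authors' deposited table. DPP9, a dipeptidyl peptidase that restrains inflammasomes (chr19:4692558-4694492, 1934 bp), had -0.60 in KMS-11 and -0.78 in KMS-12, with -0.075 in RPMI8226 in the authors' deposited table. At both, RPMI8226 was the line nearest 0. TCHH, a structural protein of hair follicles (chr1:152110426-152112315, 1889 bp), had -0.53 in KMS-11 and -1.04 in KMS-12, with -0.21 in RPMI8226 in the authors' deposited table. The last lay 43.4 kb from LINC01814 (chr2:8514760-8516466, 1706 bp) and had -0.74 in KMS-11 and -0.58 in KMS-12, with -0.12 in RPMI8226 in the authors' deposited table. Of these 8, 4 passed limma, against 77.4% of the wide regions and 87.5% of the table.

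Some wide regions changed by nearly the same amount in the 3 lines. The steadiest lay 4.43 kb from the noncoding CBR4-DT (chr4:169015488-169016612) at -0.48 in KMS-11 and -0.51 in KMS-12, with -0.53 in RPMI8226 in the authors' deposited table. TGFBR2, the ligand-binding receptor of TGF-beta, held the largest loss among the 6 steadiest (chr3:30658107-30659134): -0.74 in KMS-11 and -0.75 in KMS-12, with -0.85 in RPMI8226 in the authors' deposited table. The 3 lines averaged -0.78 ± 0.060 (SD, n = 3 lines). By limma its Benjamini-Hochberg adjusted p was 0.00804, which depends on its mean and not on its small spread, since every region received the same standard error. It was lower in 3 of 3 lines, but no region of the table had a value above 0 in any line. The others lay near LINC02414 (chr12:131626865-131627694, -0.74 ± 0.066), LOC105373451 (chr2:18117308-18118068, -0.57 ± 0.055), the chemokine scavenger receptor gene ACKR1 (chr1:159239120-159240526, -0.56 ± 0.064) and CCDC80, a matrix protein gene (chr3:112676524-112677332, -0.50 ± 0.068; SD, n = 3 lines each). At the other end, the 6 widest spreads, SD 0.90 to 1.17, all came from a low KMS-12 value. They were the regions at GUCY2F, NAV1 and NAMPT-AS1 given above, and those at TTC34 (chr1:2653659-2654405), TMEM207 (chr3:190424326-190425167) and LINC00114 (chr21:38766904-38767674). Of these, the authors' deposited table gave KMS-12 -2.11 at TTC34, -2.03 at TMEM207 and -1.94 at LINC00114.

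Among the 6 means nearest 0, 1 line per region stood above -0.5, which the selection of the table fixes for any mean above -0.5. NTSR1, the neurotensin receptor (chr20:62739634-62741093, 1459 bp), had -0.50 in KMS-11 and -0.015 in KMS-12, with -0.55 in RPMI8226 in the authors' deposited table. The 3 lines averaged -0.36 ± 0.30 (SD, n = 3 lines). SNX16, a sorting nexin of endosomes (chr8:81794952-81795841, 3.74 kb away), had -0.53 in KMS-11 and -0.018 in KMS-12, with -0.65 in RPMI8226 in the authors' deposited table. LOC124901992 (chr8:100494199-100495438, -0.37 ± 0.24), LOC124905959 (chr2:191617473-191618301, -0.38 ± 0.24), GOLGA6L6 (chr15:20645982-20647000, -0.39 ± 0.24) and LNCPRESS1 (chr7:101289876-101290850, -0.39 ± 0.25) made up the rest (SD, n = 3 lines each). KMS-12 was nearest 0 in 4 of these 6 and RPMI8226 in the others. Across the 332 wide regions shared by 2 lines, KMS-12 was the line above -0.5 in 32.2% and RPMI8226 in 46.4%.

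Of 218 genes in 14 lists of myeloma, lymphocyte and stress pathways, 6 had a wide region, and 9 lists had none. Among those 9 were the lists of myeloma drivers, BET response, NF-kB, cell cycle, apoptosis and Notch genes. In this order, they had only 3, 2, 2, 1, 2 and 9 regions of any width. In the whole table, 399 of 3838 regions were wide and away from gene ends. Of 19 genes for the unfolded protein response and degradation from the endoplasmic reticulum, 2 had a wide region. Both regions passed limma, as did 87.5% of the table. EDEM3, a mannosidase-like protein that sends glycoproteins to degradation (chr1:184745870-184746584), had -0.55 in KMS-11 and -0.48 in KMS-12, with -0.63 in RPMI8226 in the authors' deposited table. TRIB3, a stress-induced pseudokinase 4.34 kb away (chr20:401897-402675), had -1.17 in KMS-11 and -1.13 in KMS-12, with -0.30 in RPMI8226 in the authors' deposited table. TRIB3 was the lowest of the 6 list regions, at -0.87 ± 0.49 (SD, n = 3 lines). POU2F1, an octamer-binding factor of the plasma cell list (chr1:167252950-167253775), had -0.95 in KMS-11 and -0.36 in KMS-12, with -0.81 in RPMI8226 in the authors' deposited table and passed limma. The other 3 did not pass. CXCR5, the B cell homing receptor 12.9 kb away (chr11:118869955-118870976), had -0.11 in KMS-11 and -0.63 in KMS-12, with -0.66 in RPMI8226 in the authors' deposited table. EHF, an ETS factor of epithelia (chr11:34650258-34651054), had -0.59 in KMS-11 and -0.64 in KMS-12, with -0.14 in RPMI8226 in the authors' deposited table. FOS, an AP-1 subunit 28.7 kb away (chr14:75249257-75250164), averaged -0.48 ± 0.093 (SD, n = 3 lines).

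A further look at the genes assigned to wide regions picked out 4 kinds, formed after seeing which genes had one, so their counts carry no test. Transcription factors and chromatin regulators had 21 regions at 20 genes, with a median mean of -0.63 (-0.71 for the whole table), and 17 passed limma, against 87.5% of the table. NR3C2, the mineralocorticoid receptor (chr4:148216538-148217452), was the one shared by 3 lines, at -0.74 in KMS-11 and -1.27 in KMS-12, with -0.75 in RPMI8226 in the authors' deposited table. The lowest mean was 10.2 kb from FOXB1, a forkhead factor of the brain (chr15:60017658-60018368), -0.93 ± 0.89 (SD, n = 3 lines). Its KMS-12 value was -1.92 in the authors' deposited table. HDAC9, a class IIa histone deacetylase (chr7:18177796-18178647), had -0.87 in KMS-11 and -0.050 in KMS-12, with -0.97 in RPMI8226 in the authors' deposited table. ARID2, a subunit of the PBAF remodeller (chr12:45878752-45879553), had the same order, -0.75 in KMS-11 and -0.061 in KMS-12, with -0.84 in RPMI8226 in the authors' deposited table. The estrogen receptor gene ESR1 had wide regions with opposite gaps: the one without a start (chr6:151702844-151703763) had -0.92 in KMS-11 and -0.21 in KMS-12, with -0.65 in RPMI8226 in the authors' deposited table, so KMS-12 was nearest 0 there and KMS-11 at the one with the start.

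Genes of growth factor and mTOR signalling had 9 wide regions, of which 7 passed limma, against 87.5% of the table, with a median mean of -0.63. Of the 9, 1 was shared by 3 lines, that at TGFBR2 given above, against 16.8% of the wide regions and 24.8% of the table. KMS-11 had the lowest value in 6 of the 9, against 38.6% of all 399 wide regions, with no test made. DEPTOR, an inhibitor of mTOR that is abundant in a part of myelomas (chr8:119919621-119920453), had -0.97 in KMS-11 and -0.91 in KMS-12, with -0.0022 in RPMI8226 in the authors' deposited table. IGF1R, the receptor of a myeloma growth factor (chr15:98873743-98875116, 1373 bp), had -0.59 in KMS-11 and -0.68 in KMS-12, with -0.099 in RPMI8226 in the authors' deposited table. RPMI8226 was near 0 at both. FNIP2, a folliculin partner in nutrient sensing (chr4:158809657-158810863), had -1.17 in KMS-11 and -0.11 in KMS-12, with -1.24 in RPMI8226 in the authors' deposited table. EIF4EBP1, the translation repressor that mTOR inactivates (chr8:38053299-38054237), had -0.93 in KMS-11 and -0.12 in KMS-12, with -0.66 in RPMI8226 in the authors' deposited table. Here KMS-12 was nearest 0. ROR1, a receptor of WNT5A (chr1:64039109-64039929), had -1.51 in KMS-11, the lowest value of the group, in the authors' deposited table.

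Immune receptor and lymphocyte signalling genes had 14 wide regions, of which 11 passed limma, against 87.5% of the table, and 2 were shared by 3 lines, against 24.8% of the table. Neither count is above the share in the table. PRKCB, a protein kinase C of B cell receptor signalling (chr16:23863402-23864205), had -0.90 in KMS-11 and -1.06 in KMS-12, with -0.77 in RPMI8226 in the authors' deposited table. The 3 lines averaged -0.91 ± 0.15 (SD, n = 3 lines). AIM2, a sensor of cytosolic DNA (chr1:159067539-159068569), had -0.64 in KMS-11 and -0.82 in KMS-12, with -1.13 in RPMI8226 in the authors' deposited table. PTPRC, which encodes CD45, a phosphatase that many myeloma cells have lost (chr1:198701423-198702294), had -1.49 in KMS-11 and -0.068 in KMS-12, with -1.01 in RPMI8226 in the authors' deposited table. PTPN1 (chr20:50569847-50570802, -0.79 ± 0.57) and PTPN2 (chr18:12839122-12839997, -0.55 ± 0.42; SD, n = 3 lines each), phosphatases that dampen cytokine signals, differed in the line nearest 0, KMS-11 at PTPN1 and KMS-12 at PTPN2. CD247, the zeta chain of the T cell receptor (chr1:167499208-167500097), had -0.10 in KMS-11 and -0.85 in KMS-12, with -0.73 in RPMI8226 in the authors' deposited table. Neuronal channel and receptor genes had 9 wide regions with a median mean of -0.61, and CACNA1C, a calcium channel (chr12:2336236-2336938), was the one shared by 3 lines, at -0.74 in KMS-11 and -0.51 in KMS-12, with -0.59 in RPMI8226 in the authors' deposited table.

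**Figure D5:**
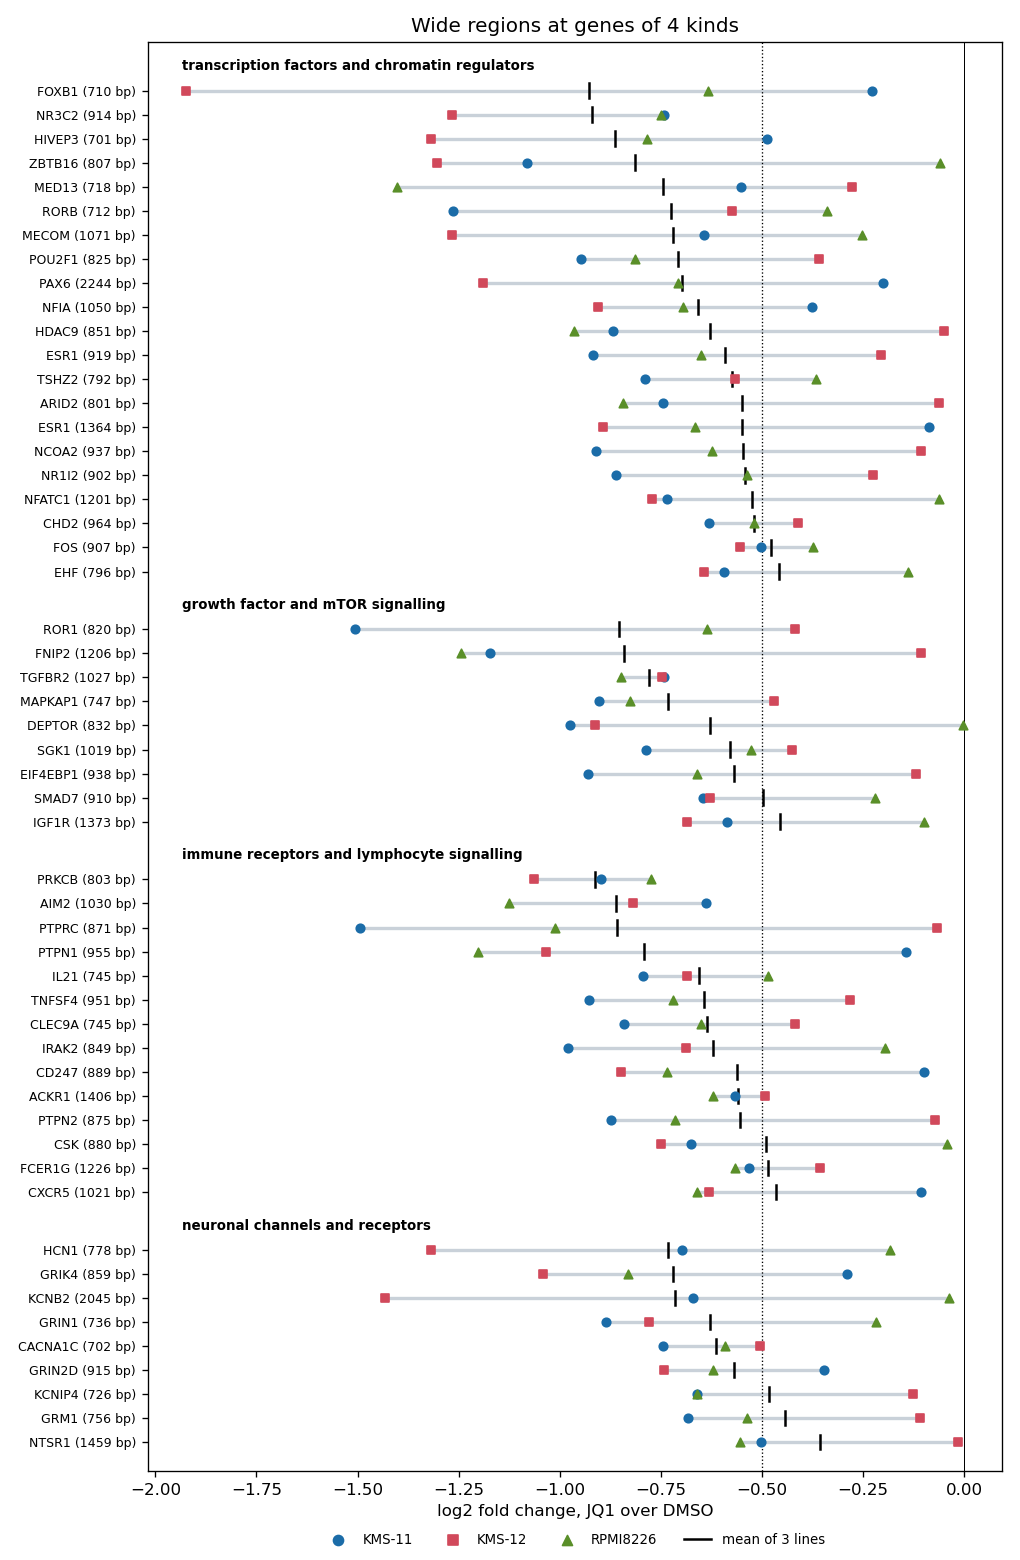
Log2 fold change of JQ1 over DMSO (horizontal axis) in each line for the 53 wide regions at genes of 4 kinds, named by gene and width; grey bars span the lines, black ticks are means and the dotted line marks -0.5. Group medians of the mean run between -0.63 and -0.61, and the line nearest 0 differs from region to region.

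The 399 were assigned to 387 genes, 10 of which had more than 1, and 52 of 399 had another region of the table within 20 kb, against 311 of 3120 narrower regions. LINC01814 had 4, over its body and the stretch beside it, with means between -0.75 and -0.46. Only 5 pairs lay within 20 kb of each other. The closest, 53 bp apart in SSH1, a phosphatase that activates cofilin, had -1.06 in KMS-11 and -0.53 in KMS-12, with -0.077 in RPMI8226 (chr12:108783182-108784398) and -1.13 in KMS-11 and -0.53 in KMS-12, with -0.28 in RPMI8226 (chr12:108784451-108785383) in the authors' deposited table. Their order of lines was the same. In CDH13, encoding T-cadherin, the pair was 5654 bp apart and averaged -0.54 ± 0.13 (chr16:82728666-82729461) and -0.85 ± 0.30 (chr16:82735115-82736295; SD, n = 3 lines each). In MUC3A, a membrane mucin, the pair averaged -0.78 ± 0.87 (chr7:100957940-100958898) and -0.57 ± 0.44 (chr7:100965879-100967080), in the noncoding LOC112268408, where the second overlaps the pseudogene ROCK1P1, -0.45 ± 0.40 (chr18:106777-108294) and -0.92 ± 0.83 (chr18:110322-111082), and in CMKLR2-AS -0.49 ± 0.23 (chr2:206229933-206230797) and -0.67 ± 0.23 (chr2:206245142-206246273; SD, n = 3 lines each). RPMI8226 was nearest 0 in 7 of these 10 regions. Across the 332 wide regions shared by 2 lines, it was the line above -0.5 in 46.4%.

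By place, of the 399, 193 (48.4%) were inside a protein-coding gene, 50 (12.5%) inside a lncRNA gene only and 156 (39.1%) outside both, against 47.0%, 12.4% and 40.6% of the narrower regions. The host protein-coding genes had a median length of 139 kb for wide and 141 kb for narrower regions. Regions outside genes lay a median of 21.1 kb from the nearest gene when wide and 19.7 kb when narrower. The median mean fold was -0.64 inside and -0.65 outside genes for wide regions. By chromosome, the wide share of regions away from gene ends lay between 5.43% on chromosome 13 and 19.3% on chromosome 19, with 41 wide regions on chromosome 1 and 2 on chromosome 22.

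The limit of 700 bp cut through a continuous range. The 4 regions just inside it, all of 700 bp, were those at LINC01473, given above, LOC101927531 (chr12:126362621-126363321, -0.75 ± 0.61), RPN1, a subunit of the oligosaccharyltransferase, inside the pseudogene POU5F1P6 (chr3:128674747-128675447, -0.72 ± 0.72), and SEMA6B, a semaphorin (chr19:4556231-4556931, -0.50 ± 0.27; SD, n = 3 lines each). Just outside it, at 697 to 699 bp, were regions at PHLPP1, a phosphatase of AKT (chr18:62763226-62763925, -0.80 ± 0.18), SLC9A9, an endosomal proton exchanger (chr3:143875568-143876267, -0.65 ± 0.058), DPT, a matrix protein (chr1:168719452-168720149, -0.66 ± 0.41) and LOC101928080 (chr10:6128578-6129275, -0.84 ± 0.21; SD, n = 3 lines each).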

How the data were processed

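Each region's 3 values are log2 fold changes as deposited by the authors, beside a count of lines in common; a ratio of JQ1 to DMSO here is 2 raised to that value. The submitters' processing notes name DESeq2 and MACS2, and as builds GRCh38.p13 and hg38, with no roles. How reads were aligned, filtered, shifted for the transposase and scaled, and how peaks were called, was not given in the sources used here. Base 2 was assumed because the authors' notes name DESeq2, which reports folds in it; the direction, JQ1 over DMSO, was assumed too, since no source used here states it. With no counts, no count model or interval could be had. The mean and SD over lines were computed per region. The mean of all 3838 regions was tested against 0 in limma 3.58.1 under R 4.3.3, with Benjamini-Hochberg adjustment, after a check on simulated data. Differences between wide and narrower regions were tested over lines by exact sign flips. A region went to the gene that contains it (protein-coding first, then the shortest), otherwise to the nearest, among 20056 protein-coding and 18330 lncRNA genes of GRCh38.p14; the table's coordinates are those of the authors' file. Promoter windows come from RefSeq.

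The wide regions, gene lists and tests were chosen with earlier results of these data known. Regions named were the 12 lowest and 6 highest means, the 8 widest, the 6 largest and 6 smallest SDs, those at genes of the 14 lists, 4 on each side of the width limit and those within 20 kb of another wide region; regions of the 4 gene kinds, ADGRL2, EVA1A, TMEM127, GPR35, EPHA7, TENM1 and the overlaps in the closing section were chosen after their values were seen.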

Additional observations from a re-analysis of the deposited data

How the results depend on the processing

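The number of wide regions followed the limits set: 686 from 600 bp and 94 from 1000 bp, and 316 to 471 under the other limits on distance. With them, 548 and 68 passed limma (79.9% and 72.3%, against 87.5% of the table), and 11.7% of those from 1000 bp were shared by 3 lines, against 16.8% from 700 bp. Leaving out 1 line, 78 to 175 of the 399 passed limma (19.5% to 43.9%, against 34.1% to 55.0% of the table). Trend and robust variances called 396, with 99.8% of the table. With each line's median subtracted first, limma called 0 of 399 at an adjusted p under 0.05 (13 of 3838 in the table). At an unadjusted p under 0.05 it called 7 of 399 (128 of 3838 in the table). The wide minus narrower difference in median fold stayed positive in its mean over lines in each alternative run, between 0.036 and 0.11, and that in repeated values stayed negative. The lowest, 0.036, came from regions shared by 2 lines only, an alternative added after seeing the data; with narrower regions of at least 400 bp it was 0.055, and without 1 line 0.069 to 0.11. Of 54 named wide regions, 18 lost their limma call when KMS-11 was left out, 18 (and 2 gained one) when KMS-12 was, and 8 when RPMI8226 was; the cause was not tested. Each deposited fold is already taken within a line, so the tests over lines are themselves paired by line. No separate paired run was made, since a further block has nothing to remove. Unknown depth limits every single value.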

Other observations

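Small genes that the distance rule did not consider lay in a few wide regions. A region chr6:57837761-57838519 contained the alanine tRNA gene TRA-AGC13-2 and had -0.076 in KMS-11 and -0.50 in KMS-12, with -1.46 in RPMI8226 in the authors' deposited table. RPMI8226 was the lowest line there and KMS-11 the nearest 0. One in CSK, a kinase that restrains SRC family kinases (chr15:74788748-74789628), overlapped 10 bases of the hairpin gene MIR4513 and had -0.68 in KMS-11 and -0.75 in KMS-12, with -0.042 in RPMI8226 in the authors' deposited table. Another lay inside the T cell receptor beta locus (chr7:142375826-142376576) and had -0.68 in KMS-11 and -0.79 in KMS-12, with -0.0018 in RPMI8226 in the authors' deposited table.

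Pseudogenes overlapped 9 of the 399 wide regions. Such overlaps were not counted in narrower regions, so whether this number is high for the table is unknown. The 9 included chr18:110322-111082 in ROCK1P1 (-0.92 ± 0.83), chr22:12691856-12692714 at DUX4L44 (-1.03 ± 0.79), chr3:128674747-128675447 inside POU5F1P6 (-0.72 ± 0.72) and chr7:76996946-76997678 inside DTX2P1 (-0.70 ± 0.38; SD, n = 3 lines each). Such sequences resemble other places in the genome, and how reads with several matches were treated is not given in the sources used here.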
